A study of Mus musculus with 6 samples.

Results

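The retinoic acid receptors Rara, Rarb and Rarg were read together with 6 genes of retinoic acid metabolism: the aldehyde dehydrogenases Aldh1a1, Aldh1a2 and Aldh1a3, the cellular binding proteins Crabp1 and Crabp2, and the retinaldehyde reductase Dhrs3. These 9 genes were chosen by pathway with the expression difference between the genotypes already known, and every probe annotated to them was taken, 17 of the 45281 probes on the array. The contrast between genotypes is therefore given for them as a description, and where they are counted against a threshold nothing is read from the count. Of the 9 genes, 6 were above background at 1 or more probes on 1 or more arrays and were among the 10160 genes tested, and Rara, Aldh1a2 and Dhrs3 had none.

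The values come from mouse embryonic fibroblast (MEF) lines, cultures of the mesenchymal cells of the embryo, each made from an individual whole C57BL/6J embryo at E10.5. There were 2 Rnaseh2b-/- lines and 4 Rnaseh2b+/+ lines, and all 6 also lacked p53, so that both groups were p53-/-. The Rnaseh2b-/- allele lacks an exon excised by Cre from a conditional knockout-first allele, and removes a subunit of RNase H2, the enzyme that cuts RNA within DNA. The study picked its 2 Rnaseh2b-/- lines from a larger set because their interferon-stimulated genes were high, so they are not a random draw of that genotype. Passage-matched cells were plated at 200000 per well, given fresh medium, and lysed 20 h later, in 10% serum, 5% CO2 and 3% O2. The labels name no added retinoid. RNA was hybridised to 1-colour Illumina MouseWG-6 v2 BeadChips, 1 array per line.

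Retinoic acid is made from retinol (vitamin A), which dehydrogenases oxidise to retinaldehyde and the Aldh1a enzymes then oxidise to the acid. It enters the nucleus, where the receptors bind DNA as pairs with an RXR, holding corepressors without the ligand and coactivators with it. Cyp26 enzymes break it down, and Dhrs3 returns retinaldehyde to retinol. In the embryo the signal patterns the hindbrain, trunk and heart through genes such as the Hox genes, and Rarb is itself a classical target of the receptors, induced where the ligand is present.

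The receptors bind direct repeats of a hexamer, and the promoter windows of the genes were read for them. A DR5 is a pair of hexamers spaced by 5 bases, a DR2 by 2 bases and a DR1 by 1 base. The hexamer was taken as AGGTCA or AGTTCA or GGGTCA or GGTTCA on either strand, the same 4 for each motif, and the 3 motifs share hexamers where repeats overlap. The windows are those of RefSeq on GRCm38.p6, 250 bases before and 50 bases from the start of a transcript on, 300 bases in all. Of 32851 windows, 32 (0.0974%) held a DR5, 88 (0.268%) a DR2 and 73 (0.222%) a DR1. Windows were given for 7 of the 9 genes, 14 windows in all, and none for Aldh1a3 and Crabp2. The only match among them was a DR5 in the single window of Rarb, on chromosome 14. It is shown because Rarb is the receptor that stood apart in these lines, beside the window of Cyp26a1, the retinoic acid hydroxylase whose promoter is the other classical example of such an element. Both are printed 5′ to 3′ on the strand of the gene, with the hexamers in capitals.
Rarb: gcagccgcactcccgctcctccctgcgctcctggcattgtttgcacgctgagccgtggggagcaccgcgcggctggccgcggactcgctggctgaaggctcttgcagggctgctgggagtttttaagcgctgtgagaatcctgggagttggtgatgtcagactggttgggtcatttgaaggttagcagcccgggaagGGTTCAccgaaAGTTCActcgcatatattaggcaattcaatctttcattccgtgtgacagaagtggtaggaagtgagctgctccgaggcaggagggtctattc
Cyp26a1: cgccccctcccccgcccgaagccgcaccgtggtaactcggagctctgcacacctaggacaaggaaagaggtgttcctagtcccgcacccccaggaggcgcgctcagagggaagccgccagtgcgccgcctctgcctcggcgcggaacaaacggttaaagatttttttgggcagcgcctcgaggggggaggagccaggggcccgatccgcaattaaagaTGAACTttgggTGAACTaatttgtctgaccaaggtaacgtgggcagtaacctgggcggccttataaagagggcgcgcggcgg
The Rarb window is chr14:16575427-16575726 on the minus strand, and the Cyp26a1 window chr19:37697558-37697857 on the plus strand. In Rarb the repeat runs from -53 to -37 relative to the start of transcription on the strand of the gene. In Cyp26a1 it lies on the opposite strand, from -32 to -16, and reads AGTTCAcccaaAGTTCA there.

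On these arrays Rarb and Cyp26a1 gave different readings. Rarb was above background in all 6 lines, whereas the probes of Cyp26a1 were not above background on any array. A DR5 was found in windows of 31 genes, of which 9 had a named probe and 4 were tested: Rarb, Blvrb, Cfap45 and Ppbp. The log2 fold changes of the other 3 were 0.03 for Blvrb, -0.28 for Cfap45 and -0.28 for Ppbp, and none passed the threshold (limma, lowest adjusted p = 0.370). Cfap45 and Ppbp were each above background in only 1 control and in neither Rnaseh2b-/- line, so their fold changes are mostly differences of background. A match of letters is not evidence that a receptor binds there, and its absence from these windows says nothing of sites elsewhere.

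Before the genes are given in turn, 3 facts of the lines bear on them. Rnaseh2b, the targeted gene, had log2 signals of 5.34 and 5.60 at one probe in the Rnaseh2b-/- lines, against 9.75, 9.01, 9.47 and 9.55 in the Rnaseh2b+/+ lines, and 5.52 and 5.46 in Rnaseh2b-/-, against 9.87, 9.33, 9.48 and 9.46 in Rnaseh2b+/+, at the other, so each line matched its label. The position of these probes relative to the excised exon was not examined. Markers of MEFs were present in every line: 11 of 12 fibroblast markers were tested, with a mean log2 signal of 10.03 and 10.64 in the Rnaseh2b-/- lines and 10.40 to 10.58 in the Rnaseh2b+/+ lines. Markers of other embryonic cells differed between lines. Rnaseh2b-/- replicate 1 stood apart in 13 tested markers of skeletal and cardiac muscle, whose mean was 11.50 there and 7.35 in replicate 2, against 6.04 to 7.12 in the Rnaseh2b+/+ lines. Between 15519 and 16114 probes were above background per array, and precision is limited by the small number of arrays. For 1 gene, 0.0667 is the lowest two-sided p that an exact permutation of 2 lines against 4 allows, so lower p-values rest on limma's model of the error.

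Signals are given as log2 of the background-corrected, quantile-normalized intensity, which has a floor near 4.4, and a log2 fold change is the mean of the Rnaseh2b-/- lines minus that of the Rnaseh2b+/+ lines. Values of different probes are not compared as levels. Over all genes tested the median log2 fold change was -0.02. In bulk RNA, fewer cells of a type and less RNA per cell cannot be told apart.

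Among the receptors, Rarb lay above the controls in both Rnaseh2b-/- lines, Rarg overlapped with them, and Rara was not above background. Rarb had a signal of 7.31 and 7.87 in the Rnaseh2b-/- lines, against 6.32, 6.90, 5.98 and 6.29 in the Rnaseh2b+/+ lines. Both Rnaseh2b-/- lines were above all 4 controls, and the lower of them was 0.40 above the highest control, replicate 2. The means were 7.59 ± 0.40 (SD, n = 2) in Rnaseh2b-/- and 6.38 ± 0.38 (SD, n = 4) in Rnaseh2b+/+, a log2 fold change of 1.21 (standard error 0.28), or 2.32-fold. Quantile normalization without background correction gave 0.68.

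The probes of Rarb gave the same order of groups but different separation. Its first probe read 7.64 and 8.21 in the Rnaseh2b-/- lines, against 6.49, 6.93, 6.14 and 6.64 in the Rnaseh2b+/+ lines, a difference of 1.37. Its second read 6.98 and 7.53 in the Rnaseh2b-/- lines, against 6.16, 6.87, 5.82 and 5.94 in the Rnaseh2b+/+ lines, a difference of 1.06. At the second probe, Rnaseh2b-/- replicate 1 was barely above Rnaseh2b+/+ replicate 2. The remaining probe was not above background in any line (detection p from 0.0160 to 0.498) and was left out of the average. Its reading of 5.47 in Rnaseh2b-/- replicate 2 was its highest, with 4.72 in replicate 1, against 4.55, 4.78, 4.52 and 4.72 in the Rnaseh2b+/+ lines.

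**Figure D1:**
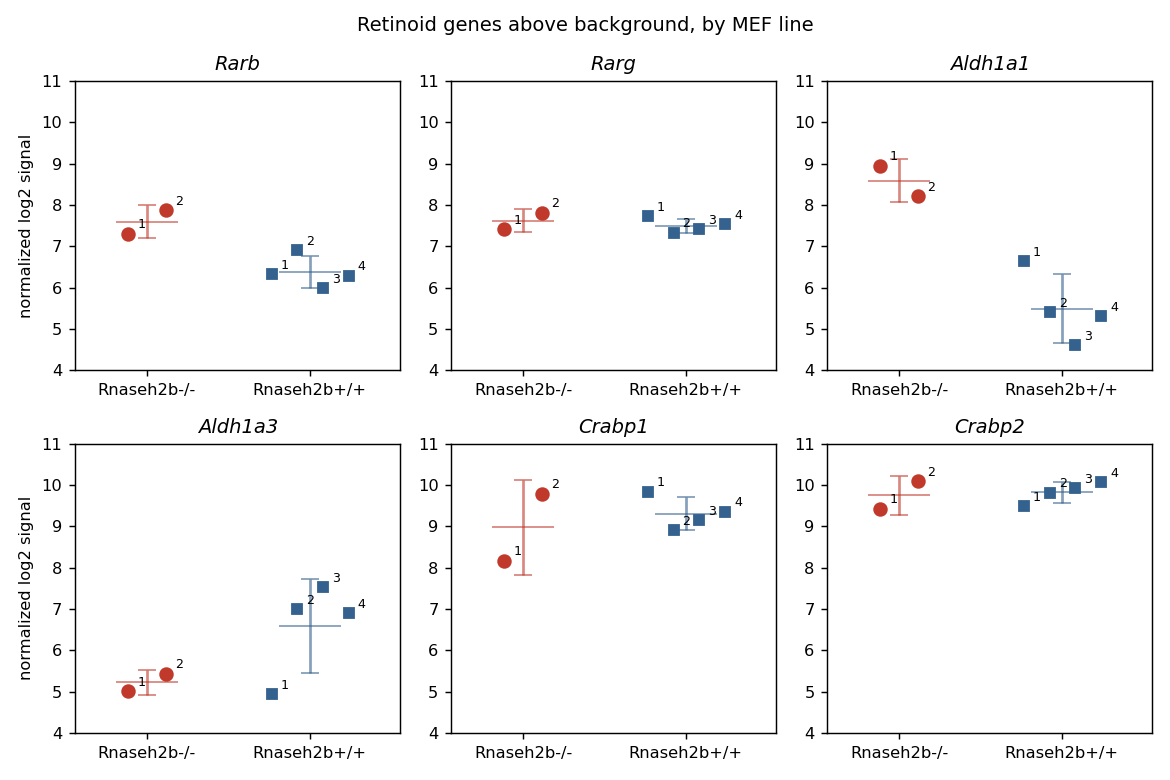
Normalized log2 signal of the 6 retinoid genes above background (vertical axis) in the 2 Rnaseh2b-/- lines (red circles) and the 4 Rnaseh2b+/+ lines (blue squares), numbered by replicate, with the mean and SD of each group as bars. Rarb and Aldh1a1 do not overlap between the genotypes, and Rnaseh2b+/+ replicate 1 lies beside the Rnaseh2b-/- lines for Aldh1a3, at 4.94.

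Rarg, the receptor best known from skin and cartilage, had a signal of 7.42 and 7.81 in the Rnaseh2b-/- lines, against 7.72, 7.33, 7.41 and 7.53 in the Rnaseh2b+/+ lines. The lines of both genotypes were intermixed, with means of 7.62 ± 0.28 (SD, n = 2) in Rnaseh2b-/- and 7.50 ± 0.17 (SD, n = 4) in Rnaseh2b+/+ and a log2 fold change of 0.12 (standard error 0.18). Its 2 probes above background differed by -0.08 and 0.31 between the genotypes, and its remaining probe was not above background on any array. With either Rnaseh2b-/- line left out the value moved to 0.31 (without replicate 1) or -0.08 (without replicate 2). Rara, the most widely expressed of the receptors, has 1 probe here. It read 5.19 and 5.00 in the Rnaseh2b-/- lines, against 5.02, 4.83, 4.92 and 5.36 in the Rnaseh2b+/+ lines, with detection p from 0.0246 to 0.130, so that its level is only bounded by the background and no fold is given.

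Of the enzymes that make retinoic acid, Aldh1a1 lay above the controls in both Rnaseh2b-/- lines. Aldh1a3 had a lower mean in Rnaseh2b-/- but overlapped with the controls, and Aldh1a2 was not above background. Aldh1a1 has 1 probe, which read 8.95 and 8.22 in the Rnaseh2b-/- lines, against 6.64, 5.41, 4.61 and 5.31 in the Rnaseh2b+/+ lines. Both Rnaseh2b-/- lines were above background and 1.58 or more above every control, and among the controls only replicate 1 was above background. The means were 8.58 ± 0.52 (SD, n = 2) in Rnaseh2b-/- and 5.49 ± 0.84 (SD, n = 4) in Rnaseh2b+/+, a log2 fold change of 3.09 (standard error 0.52), or 8.53-fold as measured. With 3 of 4 controls not above background that fold depends on the background correction, and quantile normalization without it gave a log2 fold change of 1.74. Without Rnaseh2b+/+ replicate 1 it was 3.46, and without Rnaseh2b-/- replicate 1 it was 2.74.

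Aldh1a3 had a signal of 5.01 and 5.43 in the Rnaseh2b-/- lines, against 4.94, 6.99, 7.52 and 6.90 in the Rnaseh2b+/+ lines. Rnaseh2b+/+ replicate 1 was the lowest of all 6 lines, and the other 3 controls were above both Rnaseh2b-/- lines. The means were 5.22 ± 0.30 (SD, n = 2) in Rnaseh2b-/- and 6.59 ± 1.13 (SD, n = 4) in Rnaseh2b+/+, a log2 fold change of -1.37 (standard error 0.66). Its 2 probes above background differed alike, by -1.43 and -1.30. Both were above background in controls 2, 3 and 4, neither in control 1, and one of them in Rnaseh2b-/- replicate 2. The remaining probe of Aldh1a3 was not above background on any array. Without Rnaseh2b+/+ replicate 1 the log2 fold change was -1.91, and with quantile normalization without background correction it was -0.61.

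Aldh1a2, the main retinoic acid source of the early embryo, has 2 probes, and neither was above background on any array (detection p from 0.0299 to 0.312, signals from 4.61 to 5.20). The 2 probes of Dhrs3, whose product takes retinaldehyde out of the route, gave detection p from 0.184 to 0.790 and signals from 4.43 to 4.73. For these genes the arrays give no difference between the genotypes, only a level at or below background in every line.

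**Figure D2:**
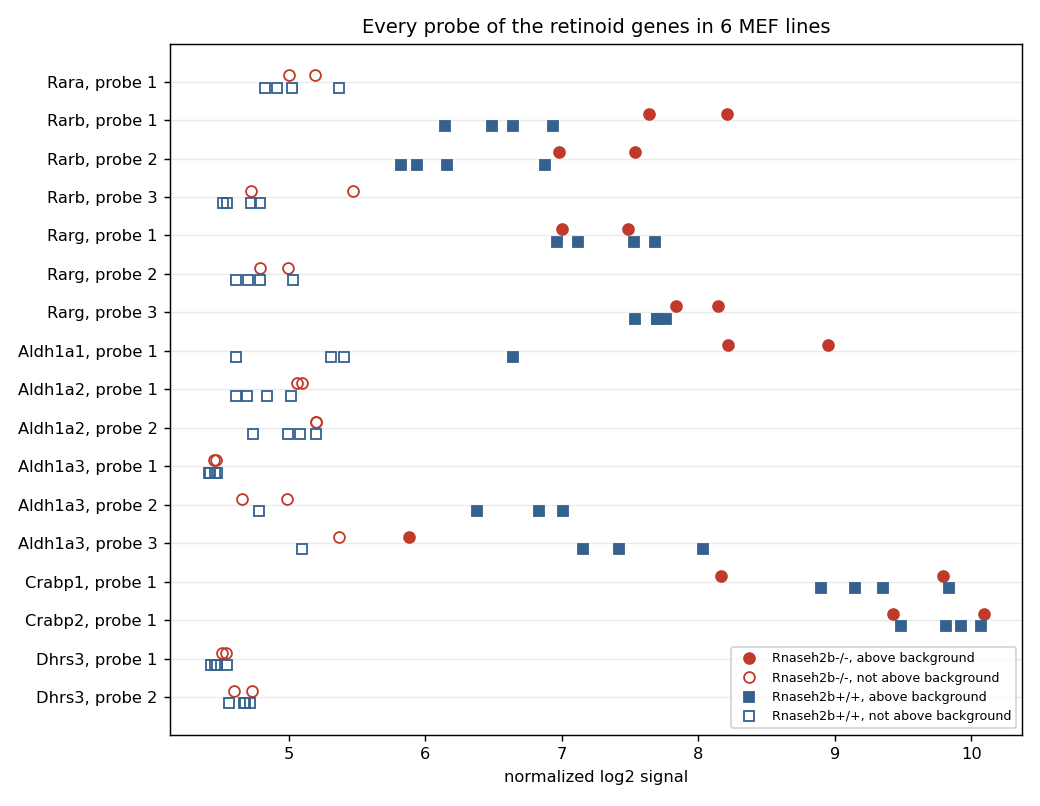
Normalized log2 signal (horizontal axis) at each of the 17 probes of the 9 retinoid genes, with 2 Rnaseh2b-/- lines as red circles and 4 Rnaseh2b+/+ lines as blue squares, filled where the probe was above background (detection p under 0.01) and open where it was not. At both filled Rarb probes the Rnaseh2b-/- lines lie to the right of all controls, and the probes of Rara, Aldh1a2 and Dhrs3 are open throughout.

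The binding proteins overlapped between the genotypes. Crabp1, which holds retinoic acid in the cytoplasm and aids its breakdown, had a signal of 8.17 and 9.80 in the Rnaseh2b-/- lines, against 9.84, 8.90, 9.15 and 9.35 in the Rnaseh2b+/+ lines. Rnaseh2b-/- replicate 1 was the lowest of the 6 lines and replicate 2 was second only to Rnaseh2b+/+ replicate 1. The means were 8.98 ± 1.15 (SD, n = 2) in Rnaseh2b-/- and 9.31 ± 0.40 (SD, n = 4) in Rnaseh2b+/+, with a log2 fold change of -0.33 (standard error 0.45) that was 0.48 without Rnaseh2b-/- replicate 1 and -1.14 without replicate 2. Crabp2, which hands retinoic acid to the receptors, had a signal of 9.42 and 10.09 in the Rnaseh2b-/- lines, against 9.49, 9.82, 9.93 and 10.07 in the Rnaseh2b+/+ lines. Its Rnaseh2b-/- lines lay at both ends of the range, and its log2 fold change was -0.07 (standard error 0.24), or 0.26 without Rnaseh2b-/- replicate 1 and -0.40 without replicate 2.

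Counted over the 6 genes above background, 2 (Rarb and Aldh1a1) had both Rnaseh2b-/- lines above all 4 controls, as did 12.5% of all genes tested. None had both below, as did 15.1% of all genes tested. No gene of the 6 passed limma's threshold (adjusted p under 0.05 over all genes tested), which 0.354% of genes passed as higher (36 genes) and 0.157% as lower (16 genes). With arrays scaled to 1 median these counts were 29 and 25, and with cyclic loess 32 and 8. Under some alternatives genes of the 6 did pass. Aldh1a1 passed with quantile normalization without background correction, with arrays weighted by their estimated precision, and without Rnaseh2b+/+ replicate 1. Aldh1a3 passed only in the last of these. At an unadjusted p under 0.05, Rarb and Aldh1a1 were among the higher, as were 7.99% of all genes, and none was among the lower, as were 9.13%. Because the 6 genes were selected on this contrast, nothing is read from these counts.

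The spread among the 4 Rnaseh2b+/+ lines uses no difference between the genotypes. The SD of Aldh1a3 over these lines (1.13) was above that of 99.6% of genes tested, and that of Aldh1a1 (0.84) above that of 98.9%. For the other genes the share was 87.5% for Crabp1, 86.4% for Rarb, 65.7% for Crabp2 and 42.6% for Rarg. The enzymes thus varied more between control lines than nearly all other genes, and the receptors less so.

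Most of the spread of both enzymes came from Rnaseh2b+/+ replicate 1. For Aldh1a1 this line was at 6.64, against 5.11 ± 0.43 (SD, n = 3) in the other controls, and for Aldh1a3 at 4.94, against 7.14 ± 0.34 (SD, n = 3). Adh7, an alcohol dehydrogenase active on retinol, was at 8.92 in this line, against 11.19 ± 0.32 (SD, n = 3) in the other controls. Cyp26b1, a retinoic acid hydroxylase, was at 5.17, against 6.59 ± 0.71 (SD, n = 3). In each of these genes the line lay towards the Rnaseh2b-/- means, which were 8.58 for Aldh1a1, 5.22 for Aldh1a3, 8.90 for Adh7 and 4.69 for Cyp26b1. Crabp1 lay the other way, at 9.84 in this line, against 9.14 ± 0.23 (SD, n = 3) in the other controls and a Rnaseh2b-/- mean of 8.98. Rarb did not share this pattern either: it was at 6.32 in Rnaseh2b+/+ replicate 1, against 6.39 ± 0.47 (SD, n = 3) in the other controls. The lines were compared here after their values were seen, and 1 line against 3 allows no test.

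**Figure D3:**
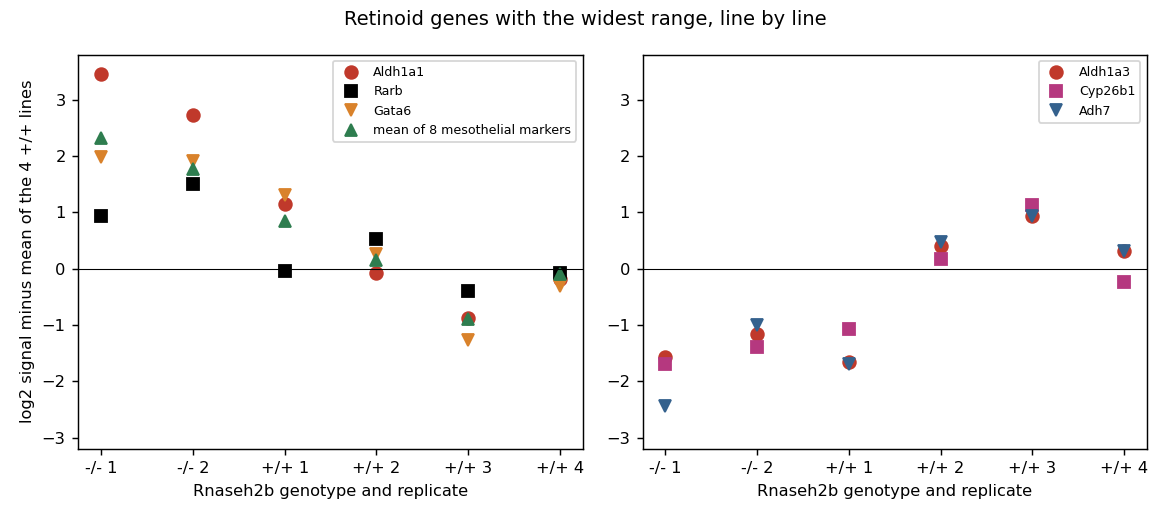
Log2 signal minus the mean of the 4 Rnaseh2b+/+ lines (vertical axis) in each of the 2 Rnaseh2b-/- and 4 Rnaseh2b+/+ lines (horizontal axis), for Aldh1a1, Rarb, Gata6 and the mean of 8 mesothelial and epicardial markers (left), and for Aldh1a3, Cyp26b1 and Adh7 (right). Rnaseh2b+/+ replicate 1 lies between the Rnaseh2b-/- lines and the other controls for Aldh1a1 and Gata6, and beside the Rnaseh2b-/- lines on the right, but not for Rarb.

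Markers of mesothelium and epicardium, coelomic linings known to make retinoic acid in the embryo, varied alongside Aldh1a1, though not alone in this. Of 12 such markers, 8 were tested. Their mean log2 signal was 8.50 and 7.94 in the Rnaseh2b-/- lines, against 7.02, 6.33, 5.27 and 6.08 in the Rnaseh2b+/+ lines. Both Rnaseh2b-/- lines were above all 4 controls for 6 and below for 1, beside 12.5% and 15.1% of all genes tested. Msln, the mesothelial surface protein, read 9.10 and 8.02 in the Rnaseh2b-/- lines, against 6.82, 5.29, 4.46 and 4.75 in the Rnaseh2b+/+ lines, and Upk3b read 11.32 and 9.78 in Rnaseh2b-/-, against 8.35, 7.93, 5.78 and 7.48 in Rnaseh2b+/+. Tbx18, of the epicardium and mesenchyme, went the other way, with 6.10 and 5.66 in the Rnaseh2b-/- lines, against 6.48, 7.72, 6.97 and 7.57 in the Rnaseh2b+/+ lines. None of the 8 passed the threshold (lowest limma adjusted p = 0.0573). Gata4, Rspo1 and Sema3d of this list were not above background on any array. The median log2 fold change of the 8 was 2.70, against -0.02 over all genes. The list means of the epithelial, muscle and endoderm markers, described next, put the lines in the same order as Aldh1a1, as the mesothelial mean did. Of the enzymes that make retinoic acid, Aldh1a2 was not above background in any line. Whether cells of any of these types had a part in the levels of Aldh1a1 was not tested.

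The other marker lists, over the tested genes of each, were as follows. For 5 epithelial genes the mean was 8.17 and 7.21 in the Rnaseh2b-/- lines and 5.36 to 6.11 in the controls, with Epcam, Cldn4 and Cldn6 not above background. The keratins Krt8 (log2 fold change 3.16), Krt18 (3.18) and Krt19 (2.43) did not overlap between the genotypes, whereas Cdh1 (0.59) and Cldn7 (0.02) did. None of the epithelial genes passed the threshold (lowest limma adjusted p = 0.0601). The muscle genes were above all 4 controls in both Rnaseh2b-/- lines for 10 of 13, beside 12.5% of all genes tested. Among the muscle genes, Myl7 passed the threshold as higher (limma adjusted p = 0.00954). Between the Rnaseh2b-/- lines, Aldh1a1 was higher in replicate 1, the line high in muscle markers, and Rarb was lower there. For 4 neural genes the mean was 7.44 and 6.51 in the Rnaseh2b-/- lines and 6.61 to 6.88 in the controls. For 3 endothelial genes it was 6.60 and 6.54 in the Rnaseh2b-/- lines and 6.66 to 7.26 in the controls, with Pecam1 and Cdh5 not above background. Single genes of these lists went both ways. The log2 fold change was 1.62 for Nes and -1.61 for Stmn2 among the neural genes. Among the endothelial genes it was 1.88 for Esam, -2.13 for Flt1 and -1.12 for Tek. For 2 genes of blood and macrophages the mean was 5.38 and 5.42 in the Rnaseh2b-/- lines and 5.05 to 6.32 in the controls, with Ptprc and Csf1r not above background. For 2 endoderm and yolk sac genes, Trf and Foxa2, it was 8.59 and 7.57 in the Rnaseh2b-/- lines and 4.91 to 5.81 in the controls. Ttr, Afp, Apoa1, Apob, Alb, Sox17 and Hnf4a of this list were not above background on any array. Foxa2 was above background only in Rnaseh2b-/- replicate 1. Trf passed the threshold as higher (limma adjusted p = 0.0344), as did Dcn among the fibroblast markers (limma adjusted p = 0.0459). Of the 11 fibroblast markers tested, 9 had a negative log2 fold change, and the median was -0.42.

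The rest of the pathway was read from lists by role, 97 genes besides the 9, of which 88 had a probe and 55 were tested. None passed the threshold in either direction (limma, lowest adjusted p = 0.121). At an unadjusted p under 0.05, 7 were higher and 6 lower, beside 7.99% and 9.13% of all genes tested. Log2 fold changes were positive for 31 and negative for 24, with a median of 0.06 against -0.02 over all genes tested, and both Rnaseh2b-/- lines were above all 4 controls for 9 and below for 8 of the 55, beside 12.5% and 15.1% of all genes tested. Without Rnaseh2b-/- replicate 2, with the single remaining line assumed to vary like the others, Rxrg was called higher (1.99, limma adjusted p = 0.00196) and Rarres1 lower (-2.13, adjusted p = 0.0120). Without Rnaseh2b+/+ replicate 1, Rbp4 (1.27, adjusted p = 0.0235) and Hoxa4 (1.23, adjusted p = 0.0446) were called higher.

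**Figure D4:**
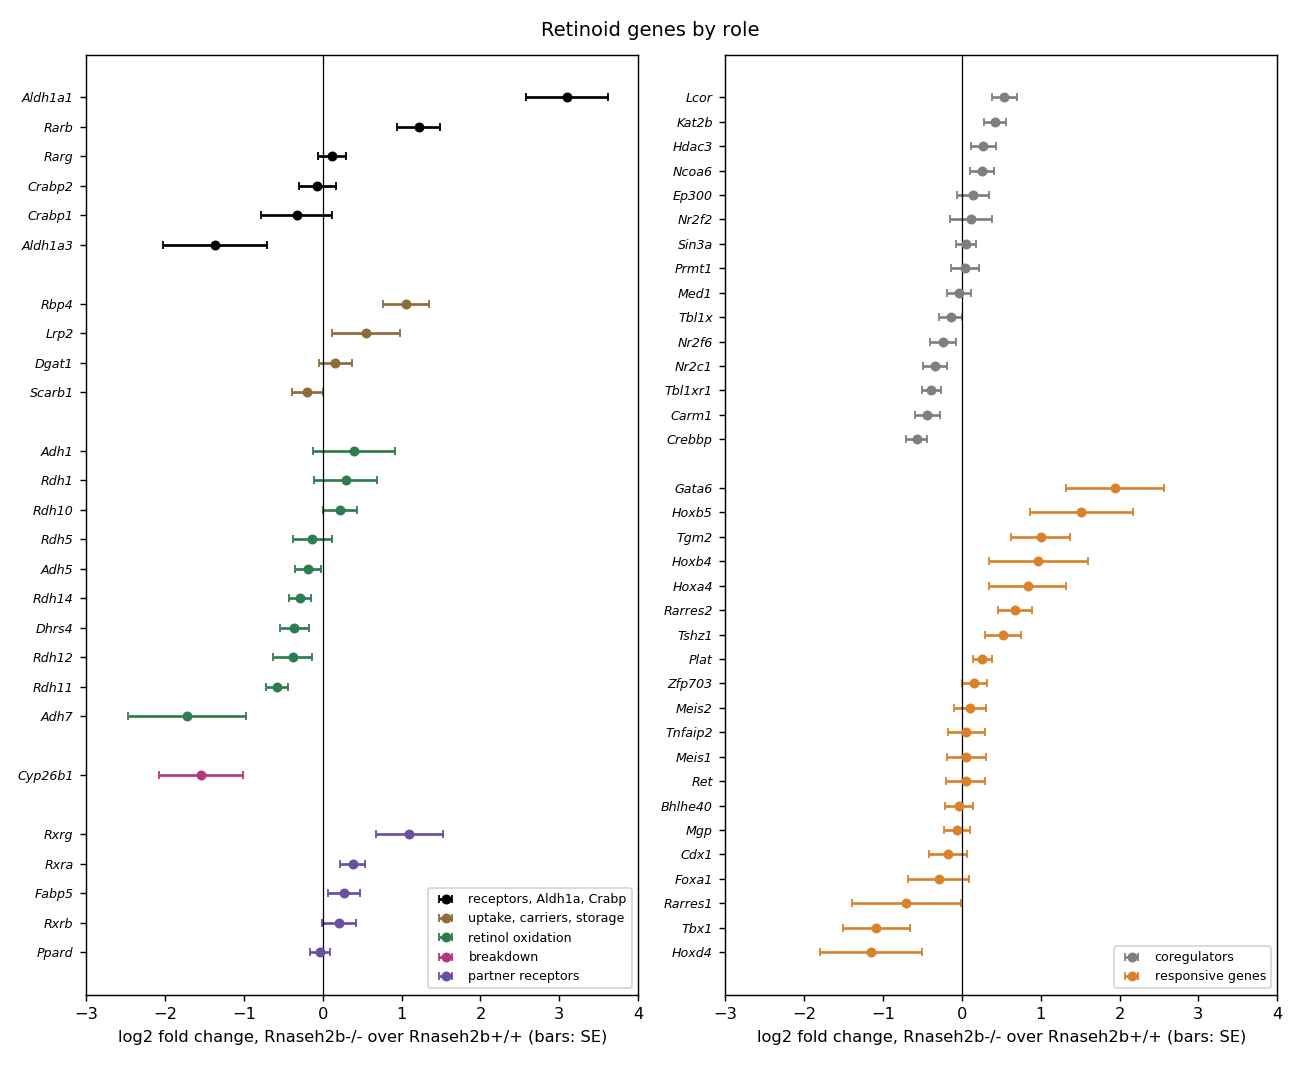
Log2 fold change of Rnaseh2b-/- over Rnaseh2b+/+ (horizontal axis, bars 1 standard error of the limma fit) for the 6 retinoid genes above background (black) and 55 other pathway genes grouped by role (colours). Aldh1a1 at 3.09 and Gata6 at 1.94 lie farthest to the right, and Adh7 at -1.72 and Cyp26b1 at -1.55 farthest to the left.

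In uptake and transport, 4 of 12 genes were tested. Rbp4, the carrier of retinol in blood, read 6.04 and 5.73 in the Rnaseh2b-/- lines, against 5.51, 4.68, 4.51 and 4.63 in the Rnaseh2b+/+ lines. It was not above background in any control, so that only a bound can be given: it was at least 1.25-fold higher in Rnaseh2b-/- than the lowest detectable signal in the controls (limma adjusted p = 0.158). Bounds of this kind compare the average of the brighter genotype with the lowest signal above background on each array of the dimmer one. The log2 fold change was 0.55 for Lrp2, an endocytic receptor for retinol carriers (adjusted p = 0.543), and -0.20 for Scarb1, a receptor for carotenoids (adjusted p = 0.627). The membrane receptor Stra6 and the storage enzyme Lrat were not above background on any array.

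The oxidation of retinol was covered by 10 tested genes of 19, with a median log2 fold change of -0.24. Rdh11, a microsomal retinaldehyde reductase, read 9.10 and 8.98 in the Rnaseh2b-/- lines, against 9.79, 9.65, 9.53 and 9.50 in the Rnaseh2b+/+ lines (log2 fold change -0.58, standard error 0.14, limma adjusted p = 0.125). Its groups did not overlap, and the same held for the related Rdh14 at -0.29 (standard error 0.14, adjusted p = 0.330). Adh7 had 8.18 and 9.62 in the Rnaseh2b-/- lines, against 8.92, 11.10, 11.55 and 10.93 in the Rnaseh2b+/+ lines, for which the log2 fold change was -1.72 (standard error 0.74, adjusted p = 0.298). Like Aldh1a3, it was low in Rnaseh2b+/+ replicate 1, so that its groups overlapped. Rdh10, the main retinol dehydrogenase of the embryo, was above background in 1 line of each genotype, with a log2 fold change of 0.22 (adjusted p = 0.620).

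Of the enzymes that break retinoic acid down, Cyp26b1 was the only one tested. It read 4.54 and 4.84 in the Rnaseh2b-/- lines, against 5.17, 6.41, 7.37 and 6.00 in the Rnaseh2b+/+ lines. Both Rnaseh2b-/- lines were below all 4 controls and not above background, as was Rnaseh2b+/+ replicate 1. Cyp26b1 was at least 1.59-fold lower in Rnaseh2b-/- than the average of the controls (log2 fold change as measured -1.55, standard error 0.53, limma adjusted p = 0.227). That average takes Rnaseh2b+/+ replicate 1 as measured, and for this line alone no bound can be given.

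Among the partner receptors all 5 listed genes were tested. Rxra read 5.80 and 5.97 in the Rnaseh2b-/- lines, against 5.70, 5.43, 5.61 and 5.29 in the Rnaseh2b+/+ lines (log2 fold change 0.38, standard error 0.16, limma adjusted p = 0.294). Rxrg, known from muscle and brain, was above background only in Rnaseh2b-/- replicate 1, at 6.47, with 4.71 in replicate 2 and 4.44 to 4.56 in the controls (limma adjusted p = 0.262). That line is also the one high in muscle markers, and whether the 2 are linked was not tested. The log2 fold change was 0.20 for Rxrb (adjusted p = 0.652). For Fabp5, which carries retinoic acid to Ppard, it was 0.27 (adjusted p = 0.531), and for Ppard itself -0.03 (adjusted p = 0.915).

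Coregulators of the receptors lay close to 0, with 15 tested of 24, a median of 0.04 and a range from -0.58 to 0.54. Crebbp, a coactivating acetyltransferase, read 5.26 and 5.32 in the Rnaseh2b-/- lines, against 5.75, 5.93, 5.77 and 6.00 in the Rnaseh2b+/+ lines. It was at least 1.23-fold lower in Rnaseh2b-/- (log2 fold change as measured -0.58, limma adjusted p = 0.121). For Tbl1xr1, a subunit of the corepressor complex, the log2 fold change was -0.39 (standard error 0.12, adjusted p = 0.202), and for the ligand-dependent corepressor Lcor 0.54 (standard error 0.16, adjusted p = 0.175). The corepressor enzyme Hdac3 was at 0.27 (adjusted p = 0.427).

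Of 38 genes known to respond to retinoic acid, 20 were tested, 13 with a positive and 7 with a negative log2 fold change and a median of 0.08. Gata6, a transcription factor of mesoderm and endoderm, read 10.99 and 10.91 in the Rnaseh2b-/- lines, against 10.32, 9.27, 7.74 and 8.70 in the Rnaseh2b+/+ lines (log2 fold change 1.94, standard error 0.62, limma adjusted p = 0.202). Rnaseh2b+/+ replicate 1 was again the control nearest to the Rnaseh2b-/- lines. Rarres2, which encodes chemerin, read 5.98 and 6.70 in the Rnaseh2b-/- lines, against 5.70, 5.71, 5.48 and 5.79 in the Rnaseh2b+/+ lines (log2 fold change 0.67, standard error 0.22, adjusted p = 0.202). For Tgm2, tissue transglutaminase, the lower of the Rnaseh2b-/- lines was at 10.23, against 9.87, 9.47, 8.46 and 9.67 in the Rnaseh2b+/+ lines. It averaged 10.37 in Rnaseh2b-/- and 9.37 in Rnaseh2b+/+ (standard error of the difference 0.38, adjusted p = 0.252). In this list both Rnaseh2b-/- lines were above all 4 controls for 4 genes, these 3 and Plat (log2 fold change 0.26, adjusted p = 0.322), and below for 1, Tbx1 (adjusted p = 0.264), beside 12.5% and 15.1% of all genes tested. The Hox genes among them pointed both ways: Hoxb5 was at 1.51 (adjusted p = 0.300), Hoxb4 at 0.97 (adjusted p = 0.460), Hoxa4 at 0.84 (adjusted p = 0.413) and Hoxd4 at -1.15 (adjusted p = 0.399). Stra8, Cyp26a1 and Bmp2, further targets, were not above background on any array.

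Rarb and Rnaseh2b both lie on chromosome 14, so the neighbours of Rarb were read in the RefSeq order of GRCm38.p6. Rnaseh2b was not among the 5 nearest tested genes on either side. Of these neighbours, 9 of 10 had a negative log2 fold change. The median of the 10 was -0.37, against -0.20 over the 350 tested genes of chromosome 14 and -0.02 over all genes tested. Next to Rarb, Top2b was at -0.18 (limma adjusted p = 0.820) on one side and Nr1d2 at -0.46 (adjusted p = 0.396) on the other. The farther genes were Il3ra at -0.23, Psmd6 at -0.39, Atxn7 at -0.59 and Thoc7 at -0.42 on the side of Top2b, and Nkiras1 at -0.16, Ube2e1 at -0.58, Ube2e2 at -0.35 and Nid2 at 0.71 on the side of Nr1d2. None passed the threshold (lowest adjusted p = 0.129, for Nid2).

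**Figure D5:**
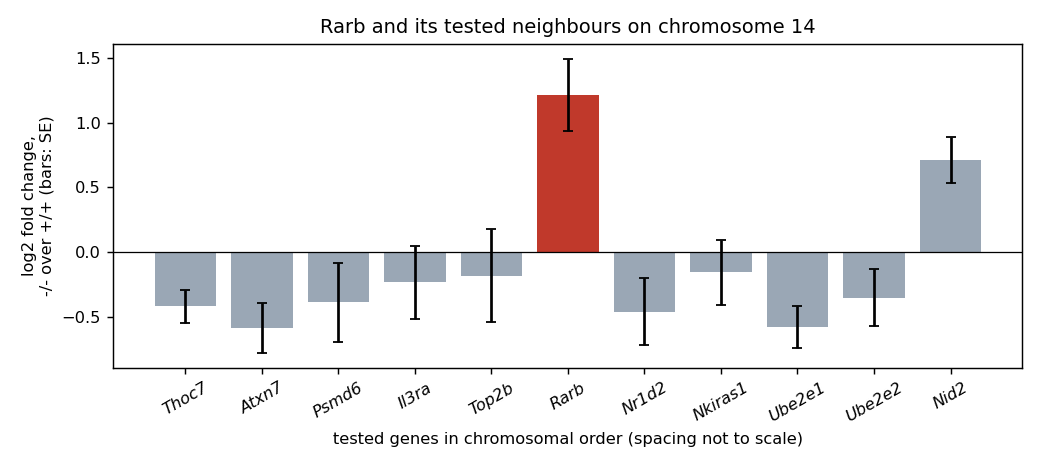
Log2 fold change of Rnaseh2b-/- over Rnaseh2b+/+ (vertical axis, bars from 0, error bars 1 standard error of the limma fit) for Rarb (red) and the 5 nearest tested genes on each side (grey) in chromosomal order, with spacing not to scale. Rarb is at 1.21, and 9 of its 10 neighbours are below 0.

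The genes whose signal was most like that of Rarb over the 6 lines were Atp6v1h, a subunit of the vacuolar proton pump (Pearson r = 0.990), Rttn (r = 0.983), Tmem176b (r = 0.982), Arap3 (r = 0.981) and the chemokine gene Cxcl16 (r = 0.980). These are the 5 highest of 10159 genes, 126 of which had r above 0.9. The value holds the difference between the genotypes as well as that among lines, and the points share their arrays. For Atp6v1h the readings were 10.96 and 11.06 in the Rnaseh2b-/- lines, against 10.73, 10.88, 10.70 and 10.71 in the Rnaseh2b+/+ lines. For Cxcl16 they were 7.52 and 8.23 in the Rnaseh2b-/- lines, against 6.87, 7.04, 6.33 and 6.58 in the Rnaseh2b+/+ lines. In all 5, as in Rarb, Rnaseh2b-/- replicate 2 was the highest line and Rnaseh2b+/+ replicate 2 the highest control. The 5 were picked for following Rarb over these same lines, so this shared order comes largely from the choice. With 5 genes taken from 10159, nothing is read from the absence of other retinoid genes among them.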

How the data were processed

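RNA of 2 Rnaseh2b-/- and 4 Rnaseh2b+/+ p53-/- MEF lines was read on 1-colour Illumina arrays. The authors exported bead-summary intensity from BeadStudio and deposited it unnormalized, with a detection p-value for each probe against negative control beads. Log2 values after neqc of limma were deposited too. The intensity went through limma 3.58.1 (R 4.3.3) here: neqc with an offset of 16 and the background taken from the detection p-values, which step by 1 in 936. The result differed from the deposited log2 values by at most 0.109. Of 45281 probes, 34885 had 1 gene symbol, and 15805 of these had a detection p under 0.01 on at least 1 array. Averaging probes per gene left 10160 genes for a 2-group linear model with moderated variances and Benjamini-Hochberg adjustment (threshold 0.05). The labels call the lines biological replicates, from individual embryos.

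The genes described, the lists by role and the marker lists were chosen with earlier results of these data known. Named from each role list were the genes past the threshold or, with none, the 3 of lowest unadjusted p. Rdh10, Stra6, Lrat, Rxrb, Ppard, Hdac3, the Hox genes, Stra8, Bmp2, Rarres1, the genes with a DR5, Adh1, Plat, Mgp, Meis1, Meis2, Tbx1 and the single markers were added to these once their values had been seen. The 5 genes most like Rarb and 5 tested neighbours on each side were also named. The steps were tested on simulated data. Alternatives were 2 filters, 4 normalizations, 2 ways to treat several probes of a gene, 2 variance models, the replicate number as a block, and each line left out.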

Additional observations from a re-analysis of the deposited data

Results flagged for a closer look

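The 4 control lines were searched for a line far from the others: the gap of the highest or lowest line to its nearest neighbour, as a share of the whole range, had to exceed Dixon's critical value for 4 values. Of 70 groups of control values examined, those of 62 named genes and of 8 marker list means, 7 did so, against about 3.50 that chance alone would give at 1 in 20. That figure assumes separate groups taken without regard to their values. Some genes were added once their values had been seen or picked for following Rarb, and the list means hold named markers. Nothing is therefore read from the comparison. Rnaseh2b+/+ replicate 1 was the far line for Lrp2, with a share of 0.951 (5.68, against 4.66 to 4.71 in the other controls), for Rbp4, with 0.831 (5.51, against 4.51 to 4.68), and for Ppbp, with 0.830 (5.74, against 4.52 to 4.73). All 3 genes were read near background. Rnaseh2b+/+ replicate 4 was far from the other controls for Thoc7, a neighbour of Rarb, with a share of 0.911 (11.71, against 11.87 to 11.88), and for Cfap45, with 0.888 (5.79, against 5.46 to 5.50). Rnaseh2b+/+ replicate 2 was above the others for Atp6v1h, with 0.831 (10.88, against 10.70 to 10.73), and for Ppard, with 0.838 (10.17, against 10.03 to 10.05).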

How the results depend on the processing

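Over 17 alternatives the log2 fold change of Rarb stayed positive, from 0.68 to 1.51, as did that of Aldh1a1, from 1.74 to 3.48, and that of Aldh1a3 stayed negative, from -1.91 to -0.61. These genes were chosen with the contrast known, so the constant signs are a description only. Rarb and Aldh1a1 did not overlap between the genotypes, so leaving out a line could hardly change their sign. Quantile normalization with no background correction gave the lowest values for Rarb (0.68) and Aldh1a1 (1.74), and it leaves the background in every signal. Leaving out each line in turn gave 0.94 to 1.51 for Rarb, 2.74 to 3.48 for Aldh1a1 and -1.91 to -1.05 for Aldh1a3. The values of Rarg, Crabp1 and Crabp2 took either sign, Rarg at -0.02 with arrays scaled to 1 median, a scaling that moved the median of all genes to -0.16. The counts of other pathway genes called higher were 0 to 2 and lower 0 to 1 with a line left out, and 0 in all settings with the 6 lines (unadjusted p under 0.05 over the alternatives with all 6 lines and no block: 5 to 9 higher and 6 to 11 lower).

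Over all genes, 36 were called higher and 16 lower. With no filter on dim probes the counts were 18 and 9, with detection on at least 2 arrays 54 and 27, with trended robust variances 55 and 36, with median scaling 29 and 25, and with cyclic loess 32 and 8. Leaving out a line gave 0 to 293 higher and 1 to 112 lower, the highest without Rnaseh2b-/- replicate 2. The genotypes share replicate numbers 1 and 2, but nothing says that a number marks a shared litter or day, and lines of the same number deviated together only weakly (correlation 0.0970 over genes). With the number as a block, which uses only these 2 pairs for the difference, the log2 fold change was 0.98 for Rarb, 2.56 for Aldh1a1 and -0.74 for Aldh1a3, and 0 genes were called in either direction.

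Signals near background are compressed, so folds of dim genes are understated, and the small number of lines limits all values.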

Other observations

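In a few retinoid genes of different roles the Rnaseh2b-/- lines lay on either side of the controls. Rarres1, a membrane protein named for its response to retinoids, read 7.53 in Rnaseh2b-/- replicate 1 and 10.38 in replicate 2, against 9.28, 9.96, 9.62 and 9.80 in the Rnaseh2b+/+ lines. Adh1, an alcohol dehydrogenase active on retinol, read 4.70 and 6.77 in the Rnaseh2b-/- lines, against 5.78, 5.28, 5.25 and 5.06 in the Rnaseh2b+/+ lines, and was above background in 1 line of each genotype. These genes were picked for this pattern after their values were seen.

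Some responsive genes had log2 fold changes close to 0. Mgp, an inhibitor of calcification, read 14.15 and 14.66 in the Rnaseh2b-/- lines, against 14.46, 14.50, 14.48 and 14.44 in the Rnaseh2b+/+ lines (log2 fold change -0.06, limma adjusted p = 0.867). Meis1 and Meis2, homeobox partners of the Hox proteins, had log2 fold changes of 0.06 (adjusted p = 0.925) and 0.10 (adjusted p = 0.814). Tbx1, known to be held down by retinoic acid in the pharyngeal region, was not close to 0: it read 4.97 and 4.47 in the Rnaseh2b-/- lines, against 6.71, 5.61, 5.05 and 5.85 in the Rnaseh2b+/+ lines, with both Rnaseh2b-/- lines not above background (adjusted p = 0.264).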
